A study of Homo sapiens with 18 samples.

Results

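The 9 genes described here encode transcription factors that set the myeloid lineage: SPI1, CEBPA, CEBPD, CEBPE, IRF8, GFI1, RUNX1, KLF2 and KLF4. They were chosen by name from the 45372 gene symbols of the deposited expression table, and all 9 were found. RNA sequencing was carried out on MV4-11 and THP1 (also written THP-1 in the labels), established acute myeloid leukemia (AML) lines that both carry a rearrangement of KMT2A. Cells of each line were given DMSO, the vehicle, or 50 nM IACS-010759 (IACS), an inhibitor of mitochondrial complex I, for 8 h or 24 h. Each of the 6 groups had 3 independent replicates, which gave 18 libraries. The sources used here do not say whether the DMSO cells were collected at 8 h or 24 h, and the same 3 DMSO libraries of a line were the control for both timepoints. Each line is a single established culture, so a difference between MV4-11 and THP1 is a difference between these 2 lines.

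Myeloid identity rests on a small set of factors that bind together at enhancers. PU.1, the ETS factor encoded by SPI1, and C/EBPα, the basic leucine zipper factor encoded by CEBPA, open the program shared by granulocytes and monocytes. IRF8 binds with PU.1 and favors the monocyte and dendritic cell branch, and GFI1, a zinc finger repressor, favors the granulocyte branch. C/EBPε and C/EBPδ act later in the granulocyte series and in the acute phase response. RUNX1, the DNA-binding partner of CBFβ, is required to form the first blood stem cells and is often mutated in AML. KLF4 and KLF2 are Krüppel-like zinc finger factors. KLF4 promotes monocyte differentiation, and KLF2 keeps monocytes and lymphocytes quiescent.

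The values are TPM, a level per transcript length in which every library has the same sum. Whole reads could be recovered from the TPM for 14880 of the 14915 genes checked (99.8%), and their sum was 19894151 to 26465916 per library. A few short noncoding RNAs took a large part of each library: 5 of them held 39.6% to 60.1% of the TPM, and when their share rises the TPM of all other genes falls. The labels were checked against cell type markers fixed for this purpose. Of 9 myeloid markers, 8 averaged 1 TPM or more in each line, and CD14 did not. The summed level of these 9 was 4240 to 7580 TPM in MV4-11 and 1100 to 1730 TPM in THP1. Most of this sum was LYZ, at a mean of 5370 TPM in MV4-11 and 986 TPM in THP1 under DMSO. Means of CD33, MPO, CSF1R, TYROBP and CD14 under DMSO were also higher in MV4-11. Those of PTPRC, ITGAM and FCER1G were higher in THP1, so the sums do not rank the lines. Some markers of other blood lineages also reached a mean of 1 TPM: 2 of 5 erythroid and 2 of 4 megakaryocyte markers in MV4-11, 1 of each list in THP1, and 1 of 4 B cell markers in each line, with summed levels of 9.34 to 16.2, 7.39 to 11.8 and 1.46 to 2.75 TPM in MV4-11 and of 4.64 to 5.98, 1.48 to 3.01 and 1.77 to 3.26 TPM in THP1. None of the 4 T cell markers and none of the 4 epithelial or stromal markers reached a mean of 1 TPM in either line.

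The levels fell into the same tiers in both lines. IRF8 and CEBPA were the most abundant factors under DMSO, at a mean of 224 and 222 TPM in MV4-11 and 221 and 233 TPM in THP1. GFI1 and SPI1 followed at 121 and 117 TPM in MV4-11 and 140 and 118 TPM in THP1. Among genes that averaged 1 TPM or more in the same cells, these 4 factors stood above at least 95.2%. RUNX1 and CEBPD came next, at 41.7 and 35.8 TPM in MV4-11 and 32.2 and 32.0 TPM in THP1. KLF4, CEBPE and KLF2 were low, at 2.95, 2.69 and 0.761 TPM in MV4-11 and 5.76, 2.77 and 1.13 TPM in THP1.

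The order of the 9 levels under DMSO was the same in both lines except that IRF8 and CEBPA changed places. Within each pair of neighbors (IRF8 and CEBPA, GFI1 and SPI1, RUNX1 and CEBPD) the libraries overlapped in both lines, so the order inside a pair is not beyond the spread. KLF4 and CEBPE overlapped in MV4-11 and did not overlap in THP1. All other neighbors were separated in every DMSO library of their line.

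**Figure D1:**
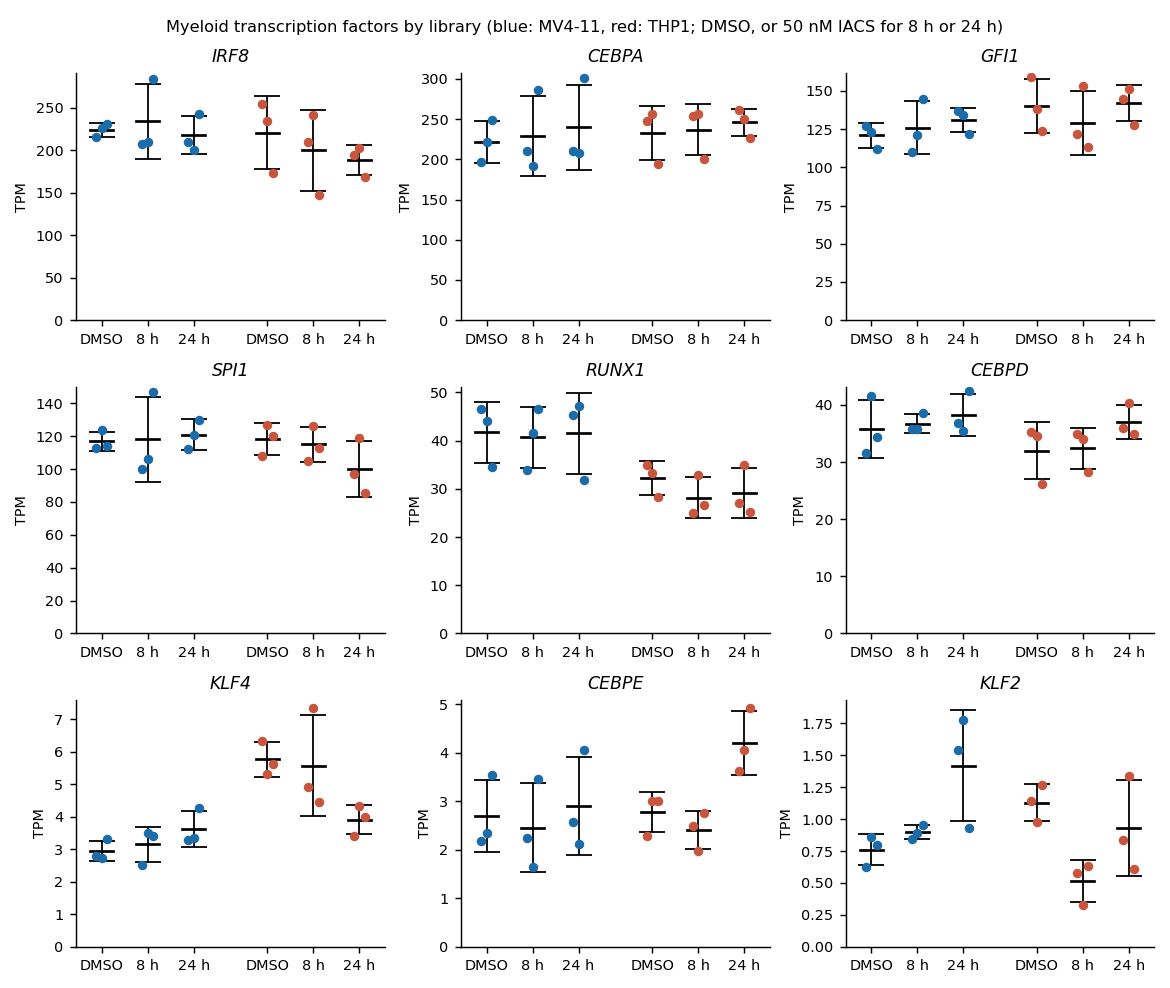
TPM of each factor (vertical axes, linear, from 0) in the 18 libraries, by line and treatment. Points are libraries, the wide bars are means of 3 and the thin bars with caps are SDs. IRF8, CEBPA, GFI1 and SPI1 lie at the same heights in blue (MV4-11) and red (THP1), while KLF4 under DMSO lies at 2.95 TPM in MV4-11 and 5.76 TPM in THP1.

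The spread between replicates differed among the factors. The median coefficient of variation over the 6 groups was 8.77% for SPI1, 10.4% for CEBPD, 10.6% for GFI1, 13.4% for KLF4, 13.9% for CEBPA, 14.4% for IRF8 and 15.5% for RUNX1. It was 22.1% for CEBPE and 23.6% for KLF2. For these last 2 genes counting alone gives 14.7% and 22.6%, since CEBPE rested on 27 to 106 reads per library and KLF2 on 6 to 35. KLF4 rested on 106 to 246 reads and each of the other 6 factors on at least 647.

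The first question was whether the untreated lines differ in these factors. Most of the factors had nearly the same level in MV4-11 and THP1, although the lines differed in much of the rest of their transcriptome. The differences were tested by limma on log2(TPM + 1), over the 14117 genes that averaged 1 TPM or more in the 18 libraries, and a gene was called at an adjusted p under 0.05 and a difference beyond 1.5-fold. In this test 36.9% of all genes were called and 1 of the 8 factors tested, KLF4. The median absolute log2 difference was 0.11 over the 8 factors and 0.43 over all genes. The 95% interval of the difference lay within 1.5-fold in either direction for 6 of the 8 factors (SPI1, CEBPA, CEBPD, CEBPE, IRF8 and GFI1) and for 27.9% of all genes. The interval is of TPM + 1, so for CEBPE, at 2.69 and 2.77 TPM, it bounds the difference in TPM less tightly. The DMSO libraries of the lines did not overlap for 1 of 8 factors and for 60.8% of all genes, and 1 of 8 factors and 55.4% of all genes had an unadjusted p under 0.05. These counts are for the TPM as deposited. KLF2, with a mean of 0.941 TPM over the 18 libraries, did not reach the minimum level and was not tested here.

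SPI1 lies at chr11:47354860-47378547 (GRCh38, minus strand). Its DMSO libraries held 113, 124 and 114 TPM in MV4-11 and 108, 127 and 120 TPM in THP1, so the range of one line lay inside that of the other. The log2 difference, THP1 minus MV4-11, was 0.01 (SE 0.15, 95% interval -0.30 to 0.32), and 1.53% of all genes tested had a smaller difference.

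CEBPA lies at chr19:33299934-33302534 (minus strand). Its DMSO libraries held 197, 221 and 249 TPM in MV4-11 and 248, 256 and 194 TPM in THP1. The groups overlapped over nearly their whole range, and the log2 difference was 0.06 (95% interval -0.30 to 0.43). The ratio of SPI1 to CEBPA within a library, a balance known to weigh on the choice between monocytes and granulocytes, was 0.531 ± 0.0642 (SD, n = 3) in MV4-11 and 0.515 ± 0.0925 in THP1. A ratio within a library is not moved by the share of the noncoding RNAs.

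IRF8 lies at chr16:85899116-85922606 (plus strand). It had 216, 226 and 231 TPM in MV4-11 and 255, 235 and 173 TPM in THP1, with a log2 difference of -0.04 (95% interval -0.42 to 0.34). GFI1 lies at chr1:92473043-92486925 (minus strand). It had 127, 123 and 112 TPM in MV4-11 and 159, 138 and 124 TPM in THP1. The THP1 libraries were on the high side for GFI1 but overlapped those of MV4-11, and the log2 difference was 0.21 (95% interval -0.08 to 0.50, limma adjusted p = 0.217). After median-of-ratios scaling, which divides each library by the median ratio of its genes, it was 0.22 (95% interval 0.09 to 0.34, limma adjusted p = 0.00492). That difference was below 1.5-fold and not called.

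RUNX1 lies at chr21:34787801-36004667 (minus strand) and was the factor with the second largest difference among the 8 tested. Its DMSO libraries held 46.6, 44 and 34.5 TPM in MV4-11 and 35.0, 33.3 and 28.3 TPM in THP1. THP1 was on the low side, its highest library just above the lowest of MV4-11, and the log2 difference was -0.36 (SE 0.18, 95% interval -0.73 to 0.02, limma adjusted p = 0.104). This interval leaves room for a level in THP1 that is lower by more than 1.5-fold. After scaling the RUNX1 difference was -0.35 (95% interval -0.61 to -0.10, limma adjusted p = 0.0167), below 1.5-fold and not called. CEBPD had 31.6, 41.5 and 34.3 TPM in MV4-11 and 35.2, 34.5 and 26.2 TPM in THP1, with a log2 difference of -0.16 (95% interval -0.45 to 0.13).

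KLF4 lies at chr9:107484852-107490482 (minus strand) and was higher in THP1. Its DMSO libraries held 2.80, 2.73 and 3.31 TPM in MV4-11 and 6.34, 5.31 and 5.62 TPM in THP1. Every THP1 library was above every MV4-11 library. The ratio of the means was 1.95, and the log2 difference of TPM + 1 was 0.78 (SE 0.16, 95% interval 0.44 to 1.11, limma adjusted p = 0.000509). A difference of this size was still exceeded by many genes, since 72.0% of all genes tested had a smaller one.

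CEBPE lies at chr14:23117036-23120256 (minus strand). It had 2.18, 2.35 and 3.55 TPM in MV4-11 and 2.29, 3.00 and 3.01 TPM in THP1, with a log2 difference of 0.04 (95% interval -0.39 to 0.47). KLF2 lies at chr19:16324826-16328685 (plus strand). It had 0.623, 0.863 and 0.798 TPM in MV4-11 and 1.14, 0.974 and 1.27 TPM in THP1, so its DMSO libraries did not overlap. With no minimum level, limma gave KLF2 a log2 difference of 0.27 (95% interval -0.05 to 0.60, adjusted p = 0.217), a value that the added 1 TPM holds down for so low a gene.

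Members of the C/EBP family share a binding site and pair with each other. CEBPA made up 64.9% ± 2.43 (SD, n = 3) of the summed TPM of CEBPA, CEBPB, CEBPD, CEBPE and CEBPG in MV4-11 under DMSO and 72.6% ± 0.523 in THP1. The ranges of this share, 63.5% to 67.7% and 72.2% to 73.2%, did not overlap. CEBPG, which binds the site but activates little by itself, made up 19.5% ± 1.80 in MV4-11 and 13.1% ± 0.657 in THP1. CEBPD held 10.5% and 9.96%, CEBPB 4.31% and 3.47%, and CEBPE 0.782% and 0.881%. With 3 against 3 libraries an exact permutation test cannot give a p below 0.1, so the shares are given as values.

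**Figure D2:**
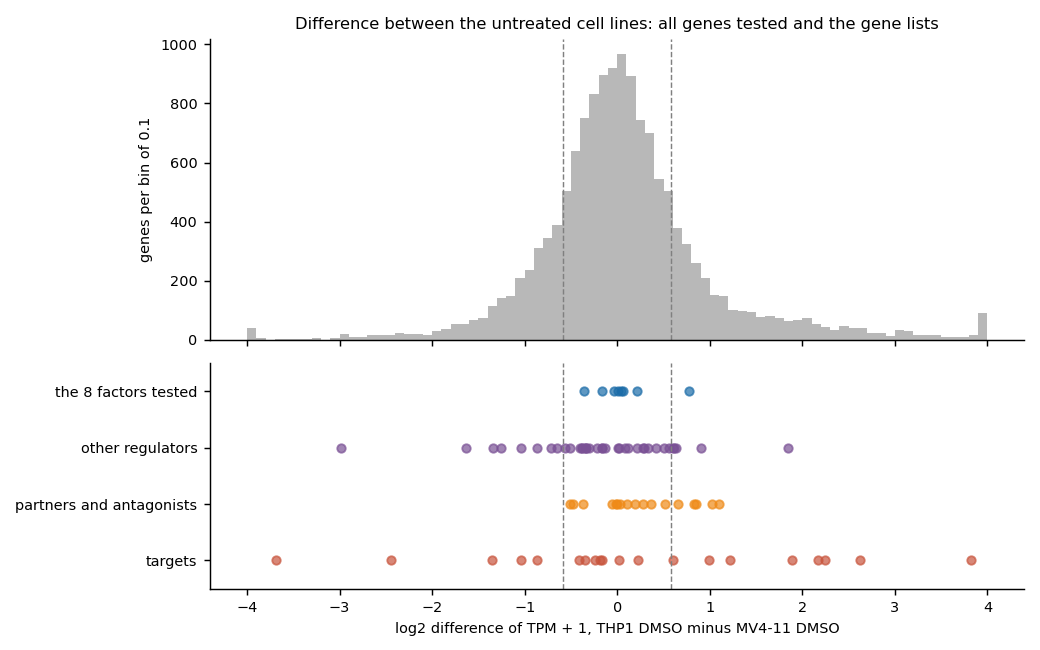
Upper panel: number of genes (vertical axis) by log2 difference of TPM + 1, THP1 DMSO minus MV4-11 DMSO (horizontal axis), for the 14117 genes tested, with larger differences gathered in the outer bins. Lower panel: the same difference for the 8 factors tested and for genes of 3 lists, 1 point per gene. Dashed lines mark 1.5-fold. KLF4, at 0.78, is the one factor outside the dashed lines, while points of each of the 3 lists lie outside them.

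Other genes of the pathway were described by 3 lists written from general knowledge, with earlier results of these data known. Of 46 other haematopoietic regulators 37 were tested between the untreated lines, and 4 were called higher and 8 lower in THP1 (32.4%, beside 36.9% of all genes). The largest differences were those of IRF4, a relative of IRF8, at 7.41 ± 0.374 TPM in MV4-11 and 0.0589 ± 0.0290 TPM in THP1 (log2 difference -2.99), and of GATA2, a stem and progenitor cell factor, at 0.686 ± 0.164 and 5.05 ± 0.527 TPM (log2 difference 1.84). STAT5A, which relays cytokine signals, had a log2 difference of -1.63, and ETV6, an ETS repressor, of -1.34. The median absolute log2 difference of this list was 0.40.

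Of 18 partners and antagonists of the factors 17 were tested, and 5 were called, all higher in THP1 (29.4%, beside 36.9% of all genes). They were MEF2D, a MADS box factor that acts upstream of KLF2 and KLF4 (log2 difference 1.10), DDIT3, a C/EBP relative that blocks the binding of its partners (1.02), NAB1, a corepressor of EGR factors (0.85), COP1, the ubiquitin ligase that degrades C/EBPα with Tribbles proteins (0.83), and WWP1, a ubiquitin ligase of Krüppel-like factors (0.66).

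Genes known as targets of the factors had the largest share called of the 3 lists. Of 26 listed 20 were tested, and 8 were called higher and 5 lower in THP1 (65.0%, beside 36.9% of all genes), with a median absolute log2 difference of 1.02. ITGAM, the integrin chain CD11b and a classic PU.1 target, was at 0.838 ± 0.0148 TPM in MV4-11 and 25.1 ± 1.87 TPM in THP1 (log2 difference 3.82). ITGAX, the chain CD11c, was at 2.75 ± 0.397 and 22.1 ± 2.58 TPM (2.62). In the other direction, ITGAL, the chain CD11a, was at 418 ± 6.86 TPM in MV4-11 and 31.8 ± 5.43 TPM in THP1 (-3.69), and LYZ, lysozyme, was at 5370 ± 796 and 986 ± 113 TPM (-2.44). Some targets thus stood far apart in both directions, while others on the list were not called. Whether the levels of the factors, KLF4 among them, bear on these differences was not tested.

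The second question was whether complex I inhibition changes the factors. None of them passed the test at either timepoint in either line. Within each line, limma was fitted to its 9 libraries, over 13542 genes in MV4-11 and 13928 in THP1. At 8 h, 0 of 9 factors were called in MV4-11 (0.0148% of all genes) and 0 of 8 in THP1 (0.0144%). At 24 h, 0 of 9 were called in MV4-11 (0.0886%) and 0 of 8 in THP1 (0.0431%). So few genes passed in any of these comparisons that 0 among 8 or 9 is no property of the factors. Kruskal-Wallis tests followed by Dunn tests, and limma's voom on the recovered reads, also called 0 factors in each of the 4 comparisons. KLF2 had a mean of 1.03 TPM in MV4-11 and 0.857 TPM in THP1, and was tested in MV4-11 alone. Its MV4-11 group means were 0.761 TPM under DMSO, 0.898 TPM at 8 h and 1.42 TPM at 24 h. It thus reached the minimum level only through the 24 h group, where it was highest.

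At 8 h the 95% interval of the change lay within 1.5-fold in either direction for 8 of 9 factors in MV4-11 (77.8% of all genes) and for 8 of 8 in THP1 (64.2%). At 24 h it did so for 8 of 9 in MV4-11 (70.0%) and for 5 of 8 in THP1 (54.5%). The exception at 8 h in MV4-11 was CEBPE, whose interval reached -0.62. KLF2 counts among the 8 at that time, but at under 1 TPM its change is held near 0 by the added 1 TPM, so its interval does not bound the change of its level. The intervals are of TPM + 1. CEBPE and KLF4 had DMSO means of 2.69 to 5.76 TPM, and the added 1 TPM makes their folds smaller too. Where they count as within 1.5-fold, a change of their TPM beyond 1.5-fold may remain possible. At 24 h the exceptions were KLF2 in MV4-11, and IRF8, CEBPE and KLF4 in THP1. For SPI1, CEBPA, CEBPD, GFI1 and RUNX1, a change of 1.5-fold or more lay outside the interval in all 4 comparisons.

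**Figure D3:**
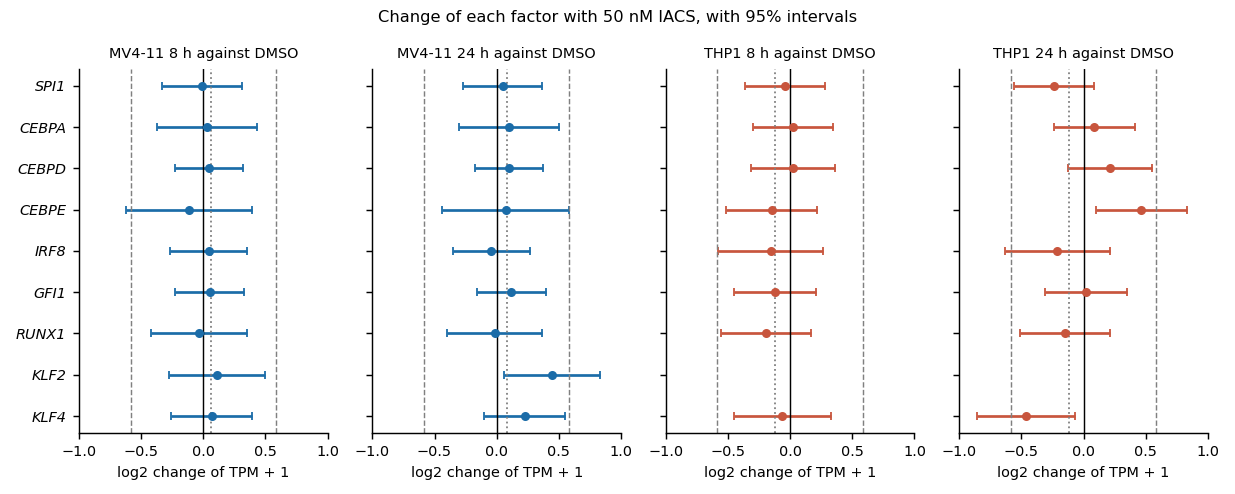
Log2 change of TPM + 1 (horizontal axes) for each factor at 8 h and 24 h of 50 nM IACS against DMSO, in MV4-11 (blue) and THP1 (red). Points are estimates and bars 95% intervals from limma, dashed lines mark 1.5-fold and the dotted line the median of all genes tested. In THP1 at 24 h, CEBPE at 0.46 and KLF4 at -0.46 lie on opposite sides with intervals that do not reach 0, and KLF2 in MV4-11 at 24 h lies at 0.44.

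Changes in THP1 have to be read against a shift of the whole table. The median log2 change of all genes was -0.12 at 8 h and -0.12 at 24 h in THP1, and 0.06 and 0.08 in MV4-11. The 5 noncoding RNAs held 46.3% to 55.8% of the TPM in THP1 DMSO libraries, 48.1% to 60.0% at 8 h and 51.4% to 60.1% at 24 h. After median-of-ratios scaling, which divides each library by the median ratio of its genes, the median change was 0.00 in each of these comparisons. The median over the factors was 0.04 at 8 h and 0.10 at 24 h in MV4-11, and -0.09 and -0.07 in THP1. After scaling it was -0.02 and 0.01 in MV4-11 and 0.03 and 0.07 in THP1.

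The abundant factors moved little. Over the 9 libraries of a line, SPI1 ranged from 99.9 to 147 TPM in MV4-11 and from 85.6 to 127 TPM in THP1. CEBPA ranged from 192 to 301 and from 194 to 261 TPM, IRF8 from 201 to 284 and from 147 to 255 TPM, and GFI1 from 110 to 145 and from 113 to 159 TPM. The highest SPI1, IRF8 and GFI1 levels of MV4-11 were those of replicate 3 at 8 h, the library with the smallest share of the noncoding RNAs, 39.6% against 50.9% and 51.9% in the other libraries of its group. After median-of-ratios scaling the log2 change at 8 h in MV4-11 was -0.07 for SPI1, -0.02 for IRF8 and -0.01 for GFI1, where it was -0.01, 0.04 and 0.05 as deposited. RUNX1 ranged from 31.8 to 47.2 TPM in MV4-11 and from 24.9 to 35.0 TPM in THP1, and CEBPD from 31.6 to 42.4 and from 26.2 to 40.3 TPM.

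SPI1 in THP1 at 24 h, with 97.1, 119 and 85.6 TPM, had the lowest group mean of this gene, and its log2 change was -0.24 (95% interval -0.56 to 0.08). Fitted with the replicate number as a block, the interval was -0.44 to -0.04 (limma adjusted p = 0.106). IRF8 in the same libraries had 195, 203 and 169 TPM and a log2 change of -0.21 (95% interval -0.64 to 0.21). After scaling these 2 changes were -0.10 and -0.07. CEBPA in the same libraries had 261, 250 and 227 TPM, a log2 change of 0.09 as deposited and of 0.22 after scaling. CEBPD had 35.9, 40.3 and 34.9 TPM, with a change of 0.21 as deposited (95% interval -0.12 to 0.55). After scaling it was 0.35 (95% interval 0.14 to 0.55, limma adjusted p = 0.0641), the smallest adjusted p of the factors there, and not called.

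Ratios within a library show the same THP1 cells free of the scaling. IRF8 over CEBPA was 1.03, 0.917 and 0.891 in THP1 under DMSO and 0.749, 0.812 and 0.743 at 24 h, without overlap. GFI1 over IRF8 was 0.624, 0.588 and 0.715 under DMSO and 0.743, 0.746 and 0.760 at 24 h, again without overlap. In MV4-11 the ratio of IRF8 to CEBPA was 1.10, 1.02 and 0.929 under DMSO and 0.995, 0.967 and 0.806 at 24 h, and that of GFI1 to IRF8 was 0.590, 0.544 and 0.482 against 0.649, 0.667 and 0.501. Both pairs of MV4-11 groups overlapped. The other ratios formed, SPI1 over CEBPA, CEBPE over CEBPA and KLF4 over KLF2, overlapped between DMSO and 24 h in THP1. The ratios of IRF8 to CEBPA and of GFI1 to IRF8 share IRF8, were picked with their values in view and carry no test.

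The 3 low factors, KLF4, CEBPE and KLF2, were the ones with a treated group wholly above or wholly below the DMSO libraries of its line. The bases before their RefSeq transcription starts are shown because these genes carry the values described next. Sequences are from the RefSeq promoter table for GRCh38.p14, 250 bases long, 5′ to 3′ on the strand of the gene. Of the 9 factors 7 had an entry in that table, with 10 entries in all, and SPI1 and CEBPD had none. Capitals mark motif matches on either strand. In KLF4 (chr9:107489770-107490019, minus strand) and KLF2 (chr19:16324576-16324825, plus strand) they mark GGGCGG, the GC box bound by SP and Krüppel-like factors, and in KLF2 also the MEF2 motif CTANNNNTAG. In CEBPE (chr14:23119256-23119505, minus strand) they mark GAGGAAG, a core bound by PU.1, and TGANTCA, the AP-1 site.
KLF4: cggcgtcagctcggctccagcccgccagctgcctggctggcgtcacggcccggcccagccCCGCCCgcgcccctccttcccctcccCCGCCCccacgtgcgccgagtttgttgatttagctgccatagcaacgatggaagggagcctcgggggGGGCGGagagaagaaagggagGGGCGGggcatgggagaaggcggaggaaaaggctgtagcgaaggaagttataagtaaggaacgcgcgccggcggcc
CEBPE: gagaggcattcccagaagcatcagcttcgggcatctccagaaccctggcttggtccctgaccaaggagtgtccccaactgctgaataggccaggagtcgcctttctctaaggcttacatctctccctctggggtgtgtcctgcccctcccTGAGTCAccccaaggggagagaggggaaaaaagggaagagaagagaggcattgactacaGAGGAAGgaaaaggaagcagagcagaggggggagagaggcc
KLF2: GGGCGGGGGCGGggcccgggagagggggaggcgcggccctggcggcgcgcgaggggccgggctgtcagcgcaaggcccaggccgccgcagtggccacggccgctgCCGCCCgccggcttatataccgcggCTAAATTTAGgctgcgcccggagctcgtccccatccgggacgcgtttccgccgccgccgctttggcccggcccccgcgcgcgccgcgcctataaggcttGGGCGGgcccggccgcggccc

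KLF4 and KLF2 each held 4 GC boxes in this window, and a GC box was found in 42.6% of all 35116 promoters of the same length. The GC boxes of KLF4 lay at -190 to -185, -164 to -159, -97 to -92 and -76 to -71 from the start. The MEF2 motif of KLF2 lay at -120 to -111, and 2.36% of all promoters held one. In CEBPE the PU.1 core lay at -41 to -35 and the AP-1 site at -100 to -94, motifs found in 11.2% and 6.57% of all promoters. Positions are counted from the RefSeq start. The windows of KLF4 and CEBPE lie inside the gene coordinates given above, which come from another annotation. A match says only that the letters are there.

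CEBPE had the largest change from 8 h to 24 h among the 8 factors tested in THP1. Its libraries held 2.29, 3.00 and 3.01 TPM under DMSO, 2.49, 1.97 and 2.75 TPM at 8 h, and 3.63, 4.05 and 4.92 TPM at 24 h. All 3 libraries at 24 h were above all 6 others. The 95% counting interval of the lowest one, 60 reads, was 2.77 to 4.68 TPM, and that of the highest DMSO library, 53 reads, was 2.26 to 3.94 TPM. Such intervals cover counting error only.

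Against DMSO, the log2 change of CEBPE at 24 h was 0.46 (SE 0.17, 95% interval 0.10 to 0.83, limma adjusted p = 0.514), and after scaling it was 0.57. Against 8 h it was 0.61 (SE 0.17, 95% interval 0.24 to 0.98, limma adjusted p = 0.506). With the replicate number as a block, limma gave the change from 8 h to 24 h an adjusted p of 0.0315, which passed the test, and that from DMSO to 24 h an adjusted p of 0.0372 at a log2 change of TPM + 1 below 1.5-fold, so that it was not called. The means behind the latter were 2.77 and 4.2 TPM, and for so low a gene the added 1 TPM makes the fold smaller. Whether the replicate numbers mark pairs of THP1 libraries was not settled, as described under the processing. In that blocked fit 1 of 8 factors and 0.818% of all genes were called from 8 h to 24 h. CEBPE made up 0.881% ± 0.227 (SD, n = 3) of the summed C/EBP TPM in THP1 under DMSO, 0.761% ± 0.225 at 8 h and 1.23% ± 0.281 at 24 h. In MV4-11 CEBPE had 2.18, 2.35 and 3.55 TPM under DMSO and 2.58, 2.12 and 4.05 TPM at 24 h, which overlapped, with a log2 change of 0.07 (95% interval -0.44 to 0.58).

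The KLF4 estimates at 24 h lay on opposite sides of 0 in the 2 lines. In THP1 its libraries held 6.34, 5.31 and 5.62 TPM under DMSO, 4.90, 7.35 and 4.46 TPM at 8 h, and 3.42, 4.32 and 4.0 TPM at 24 h. Each library at 24 h was below each library of the other THP1 groups. The log2 change against DMSO was -0.46 (SE 0.18, 95% interval -0.85 to -0.07, limma adjusted p = 0.540), and after scaling it was -0.35. Against 8 h it was -0.40 (95% interval -0.79 to -0.01, adjusted p = 0.981).

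In MV4-11 KLF4 held 2.80, 2.73 and 3.31 TPM under DMSO, 2.52, 3.5 and 3.42 TPM at 8 h, and 3.28, 3.34 and 4.26 TPM at 24 h. The 24 h libraries were on the high side and overlapped those under DMSO, with a log2 change of 0.23 (95% interval -0.10 to 0.55). At 24 h the means were 3.63 ± 0.549 TPM in MV4-11 and 3.91 ± 0.458 TPM in THP1, with overlapping libraries, where the DMSO libraries had not overlapped.

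KLF2 was measured at the limit of this depth. In MV4-11 its libraries held 0.623, 0.863 and 0.798 TPM under DMSO, 0.844, 0.894 and 0.956 TPM at 8 h, and 1.54, 1.78 and 0.931 TPM at 24 h. All 3 libraries at 24 h were above those under DMSO, the third by little. The log2 change of TPM + 1 at 24 h was 0.44 (SE 0.18, 95% interval 0.06 to 0.83, limma adjusted p = 0.343). These values rest on 13, 20 and 21 reads under DMSO and on 31, 35 and 20 reads at 24 h.

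In THP1 KLF2 held 1.14, 0.974 and 1.27 TPM under DMSO, 0.575, 0.325 and 0.636 TPM at 8 h, and 0.840, 1.34 and 0.608 TPM at 24 h. The 8 h libraries, with 15, 6 and 18 reads, were all below the DMSO libraries, with 20, 19 and 29 reads. With no minimum level limma gave a log2 change of -0.50 at 8 h (SE 0.16, 95% interval -0.85 to -0.14, unadjusted p = 0.0127, adjusted p = 1.00) and of -0.16 at 24 h (95% interval -0.51 to 0.20). The counting interval of the lowest 8 h library was 0.119 to 0.708 TPM, below that of the highest DMSO library, 0.850 to 1.82 TPM. It overlapped the intervals of the other DMSO libraries. The intervals of the other 8 h libraries, 0.322 to 0.949 and 0.377 to 1.01 TPM, overlapped those of all DMSO libraries.

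**Figure D4:**
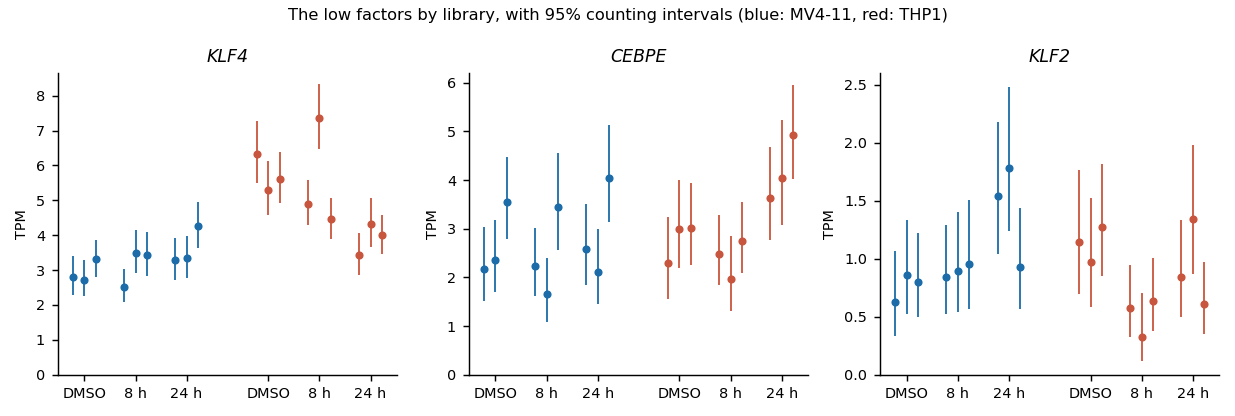
TPM (vertical axes, linear, from 0) of KLF4, CEBPE and KLF2 in each library by line and treatment, with 95% counting intervals as bars. In THP1 (red) CEBPE at 24 h lies at 3.63 to 4.92 TPM, above its other groups, and KLF4 at 24 h lies at 3.42 to 4.32 TPM, below them, while the KLF2 intervals of most libraries overlap.

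The counts of factors that moved are set here beside those of all genes. At 24 h in THP1, 2 of 8 factors (CEBPE and KLF4) had an unadjusted p under 0.05 beside 8.61% of all genes, and the libraries did not overlap for 2 of 8 factors beside 13.5%. After median-of-ratios scaling 5 of 8 factors (CEBPA, CEBPD, CEBPE, GFI1 and KLF4) had an unadjusted p under 0.05 beside 23.4% of all genes, and none was called. With the replicate block it was 4 of 8 (SPI1, CEBPD, CEBPE and KLF4) beside 29.6%, and again none was called. At 24 h in MV4-11 it was 1 of 9 (KLF2) beside 12%, and 1 of 9 without overlap beside 24.7%. KLF2 was tested in MV4-11 only because of its level at 24 h, so its place in these counts is not independent of its rise. At 8 h 0 of 9 factors had an unadjusted p under 0.05 in MV4-11 (4.39% of all genes) and 0 of 8 in THP1 (2.11%), and 0 of the factors tested were without overlap, beside 8.79% and 4.76%. KLF2 in THP1, which was not tested, did not overlap at 8 h.

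Between 8 h and 24 h of IACS, 0 of 9 factors were called in MV4-11 (0.0% of all genes), where the smallest unadjusted limma p was 0.0854, and 0 of 8 in THP1 (0.00718%). In THP1 2 of 8 (CEBPE and KLF4) had an unadjusted p under 0.05, beside 4.99%, and 3 of 8 (CEBPD, CEBPE and KLF4) were without overlap, beside 7.7%. CEBPD held 34.9, 34.0 and 28.3 TPM at 8 h and 35.9, 40.3 and 34.9 TPM at 24 h, groups that met at 34.9 after rounding, and its log2 change was 0.19 (95% interval -0.14 to 0.53).

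The third question was whether the lines responded differently. The difference between the THP1 change and the MV4-11 change was tested over the 18 libraries. At 8 h 0 of 8 factors were called (0.00708% of all genes), and the smallest unadjusted limma p was 0.386. At 24 h 0 of 8 were called (0.00708%), and 1 of 8, KLF4, had an unadjusted p under 0.05, beside 7.1% of all genes. Its difference was -0.69 (SE 0.23, 95% interval -1.16 to -0.21, unadjusted p = 0.00725, adjusted p = 0.600), and -0.50 after scaling. The 8 differences at 8 h were all below 0 as deposited and all above 0 after scaling, beside a median of all genes of -0.17 and 0.01, so their sign depends on the scaling. At 24 h the median over the 8 was -0.12, and 0.11 after scaling.

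Among the 3 lists limma called no gene in any comparison with IACS, as deposited. At 24 h an unadjusted p under 0.05 was seen for 9 of 36 regulators, 2 of 17 partners and antagonists and 8 of 19 targets in MV4-11, beside 12% of all genes, and for 4 of 37, 1 of 17 and 4 of 19 in THP1, beside 8.61%. In the regulator list the largest rises at 24 h in MV4-11 were those of JUN, an AP-1 subunit, from 3.06 ± 0.292 to 4.62 ± 0.457 TPM, and CEBPB, a C/EBP factor of the stress response, from 14.7 ± 1.67 to 20.8 ± 2.72 TPM. Each had a log2 change of 0.47 (limma adjusted p = 0.176), and the largest fall was that of KLF10, at -0.21. KLF10, a Krüppel-like factor induced by TGF-β, had the largest fall in THP1 too, from 10.4 ± 0.554 TPM under DMSO to 5.41 ± 0.270 at 8 h and 5.30 ± 0.281 at 24 h. Its log2 change at 24 h was -0.86 (adjusted p = 0.0658), and -0.73 after scaling (adjusted p = 0.0266), which passed. The largest rise in THP1 was that of STAT5A, at 0.37. The median of the list at 24 h was 0.20 in MV4-11 and -0.12 in THP1. Among partners and antagonists, ATF4, a stress factor that pairs with C/EBP proteins, had 139 ± 21.1 TPM under DMSO and 207 ± 60.2 TPM at 24 h in THP1, a log2 change of 0.54 (adjusted p = 0.563) that passed after scaling (0.68, adjusted p = 0.0335). The median of that list at 24 h was 0.07 in MV4-11 and -0.10 in THP1.

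The target genes leaned in opposite directions in the lines at 24 h, with none called. In MV4-11 14 of 19 were above 0, with a median log2 change of 0.31 beside 0.08 for all genes. In THP1 15 of 19 were below 0, with a median of -0.26 beside -0.12. After scaling 14 of 19 were above 0 in MV4-11 and 12 of 19 below 0 in THP1. The largest change was that of ITGAX in MV4-11, from 2.75 ± 0.397 TPM to a mean of 5.98 TPM (log2 change 0.89, limma adjusted p = 0.0587), which passed after scaling (0.82, adjusted p = 0.0187). In THP1, where ITGAX was higher under DMSO, its change was 0.27, and 0.40 after scaling, against the lean of the list. CYBB, the catalytic chain of the phagocyte oxidase, had a log2 change of 0.59 in MV4-11 and -0.38 in THP1, and the difference of -0.97 was not called (adjusted p = 0.248). ELANE, neutrophil elastase, had -0.14 and -0.54. CYBB and ELANE were picked with their values in view.

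**Figure D5:**
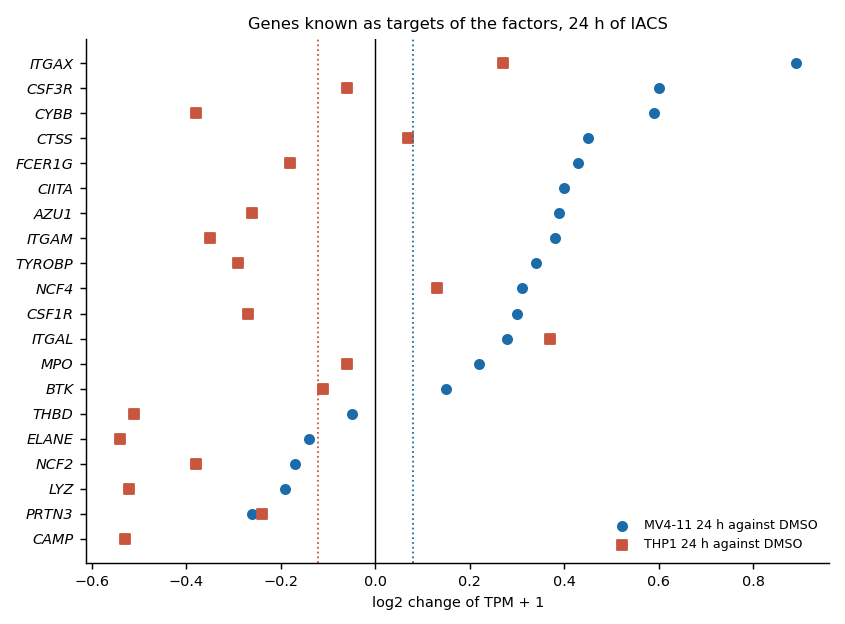
Log2 change of TPM + 1 at 24 h of 50 nM IACS against DMSO (horizontal axis) for the genes known as targets of the factors (vertical axis), in MV4-11 (blue circles) and THP1 (red squares). Dotted lines mark the median of all genes in each line, 0.08 and -0.12. A gene under the minimum level in a line has no point for it. Blue points lie mostly to the right of 0 and red squares mostly to the left.

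For each factor that averaged 1 TPM or more the gene with the most similar course was sought among 14116 genes, by Pearson's r of scaled log2(TPM + 1) over 18 libraries after removal of each line's mean. As a description, these were GNAS for SPI1 (r = 0.93), ALKBH7 for CEBPA (0.94), RBM38 for CEBPD (0.88), SNN for CEBPE (0.93), HIST1H3G for IRF8 (0.91), PPM1A for GFI1 (0.93), SDHC for RUNX1 (0.93) and HARBI1 for KLF4 (0.78). None of these 8 genes is another of the factors. The points share libraries, so that any property of a library enters every such r.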

How the data were processed

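Libraries were made by the authors from DNase-treated total RNA with a TruSeq kit and read as pairs. After trimming, CLC Genomics Workbench served for alignment (GRCh38) and for the TPM per gene symbol that were deposited. The annotation release and the use of strand are not given in the sources used here. All 18 columns were used. The members and lists were chosen with earlier results of these data known.

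Tests used limma 3.58.1 (R 4.3.3, eBayes with a variance trend) on log2(TPM + 1) for genes averaging 1 TPM or more, with Benjamini-Hochberg adjustment over all of them. They were also run on simulated data with independent noise per gene. Those data held no shift of whole libraries, so that run cannot show how the calls behave under such a shift. A call needs an adjusted p under 0.05 and a change beyond 1.5-fold. The p-values of limma set a difference of group means against the spread between replicates. That spread is pooled over the groups of the fit and drawn toward a trend over all genes. Depth was recovered with GENCODE exon lengths (tolerance 0.02 reads) and coordinates are from that annotation. Because reads of a gene and an antisense or overlapping gene may be shared, levels carry that limit.

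To see whether the replicate numbers mark pairs, deviations from group means were correlated over genes. For THP1 24 h with DMSO the 3 pairs gave 0.15, 0.16 and 0.32, and for THP1 24 h with 8 h 0.18, 0.28 and 0.36, all above 0.1. THP1 8 h with DMSO gave 0.04, 0.14 and 0.48, so not every pair was above 0.1, although the block covers all THP1 libraries. Libraries of unlike number were not correlated, so these values do not settle the pairing. The genes named are the 9 factors, the listed genes called (at most 4 per list and comparison, and WWP1 as the last of 5), the largest rise and fall among regulators at 24 h, the most similar gene to each factor, and those said to be picked with their values in view. KLF10, ATF4 and ITGAX in treated cells are named as the listed genes called after scaling.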

Additional observations from a re-analysis of the deposited data

Results flagged for a closer look

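KLF4 at 24 h drew attention because its libraries lay on opposite sides of the DMSO mean in the lines. All 3 MV4-11 libraries at 24 h lay above the mean of its DMSO libraries and all 3 THP1 libraries lay below theirs. The THP1 change minus the MV4-11 change was -0.69 on the log2 scale, with an unadjusted limma p of 0.00725 and an adjusted p of 0.600, so it fails the correction. The share of the noncoding RNAs was 42.9% to 47.9% in MV4-11 and 51.4% to 60.1% in THP1 at 24 h. After median-of-ratios scaling the difference was -0.50.

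KLF2 drew attention at both times by the unadjusted p of its line difference in the limma fit with no minimum level, and it too fails the correction. At 8 h all 3 MV4-11 libraries lay above the DMSO mean and all 3 THP1 libraries below, with a difference of -0.61 (unadjusted p = 0.0130, adjusted p = 0.990). At 24 h the difference was -0.60 (unadjusted p = 0.0140, adjusted p = 0.648), with 3 MV4-11 libraries and 1 THP1 library above the DMSO mean. These levels rest on 6 to 35 reads per library.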

How the results depend on the processing

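The alternatives were a pseudocount of 0.1, no filter, median-of-ratios scaling, a minimum mean of 10 TPM, removal of the 5 noncoding RNAs, no variance trend, only the libraries compared, unadjusted p, Kruskal-Wallis and Dunn tests, the replicate block, the block with scaling, and each library left out, with voom on recovered reads chosen after seeing the data. Of 1396 values of single factors 1349 stayed on their side of the threshold and near their value, 43 moved, 4 came to pass the threshold and 0 reversed a call. The count of factors called changed in 3 comparisons. In THP1 from 8 h to 24 h it was 1 (CEBPE) with the replicate block, 1 with the block and scaling, and 1 by unadjusted p. For the difference between the untreated lines it was 0 with a mean of at least 10 TPM, where KLF4 was not tested, and for the line difference at 24 h it was 1 (KLF4) by unadjusted p. The block changed no other count of factors called. Leaving out any 1 library changed no count of factors.

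Calls over all genes did depend on the setting. At 24 h in MV4-11 they were 12 as deposited, 84 scaled, 100 with the block and 130 by voom, and in THP1 6, 99, 296 and 174. The cause was not tested. Under 40 reads, as for KLF2, counting limits what can be seen.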
